A study of Mus musculus with 32 samples.

Results

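MPP3s are the myeloid-biased multipotent progenitors of mouse bone marrow, and their transcriptomes were compared between aged mice (20 months) and young mice (10 weeks). In aged MPP3s most genes of DNA replication, mitosis and the proteasome were upregulated, as were many of the respiratory chain and of the cytosolic and mitochondrial chaperones, mostly by less than 1 log2 unit. Many genes of mature blood lineages, and some of marrow stroma, cholesterol synthesis and the immediate early response, were downregulated, as was the Notch target Hes1, and the lineage genes fell by larger factors. Of the 32 libraries in the series, 4 are of MPP3s, 2 per age, and they were chosen by their labels alone. Of 24421 genes in the count table, 14154 passed a filter on low counts and were tested.

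All mice were female C57BL/6, with no allele or treatment named, and the groups differed in age. Per the study's methods, mice were bought young and kept to the older age in the study's facilities. The cells were sorted from marrow as negative for lineage markers and the IL-7 receptor, and positive for Sca-1, c-kit, CD34 and CD48. They were negative for CD150 and Flt3. Per the study's outline of the experiment the marrow of each age was pooled and then sorted as duplicates. The p-values measure the spread between duplicates, estimated over all 16 groups of the series together, and that spread may be technical. The MPP3 libraries held 13489993 and 12183221 counts in the young and 14502768 and 13328009 in the aged, within the range of 11237384 to 17723245 over all 32. Levels are given as CPM, the count of a gene scaled to the total of its library. Where no read was counted, up to 3 counts (0.207 to 0.246 CPM) remain possible, and such limits cover counting error only because amplified reads carried no molecular identifiers. In a principal component analysis of the 4 libraries the first component held 66.9% of the variance and separated the ages, and the second held 17.5%.

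MPP3s form early in the descent from hematopoietic stem cells (HSCs) and feed the granulocyte and macrophage lineages, largely by way of granulocyte-macrophage progenitors (GMPs). They sit beside the megakaryocyte- and erythroid-biased MPP2s and the lymphoid-primed MPP4s, which are sorted from the same c-kit and Sca-1 positive pool. They divide more often than HSCs, and early myeloid genes such as myeloperoxidase are already active in them.

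The antigens of the gate were first checked at the level of RNA. Cd34 was at 1371 and 1355 CPM in young and 1394 and 1457 CPM in aged MPP3s, Kit at 1128 and 1162 CPM in young and 818 and 869.7 CPM in aged MPP3s and Ly6a, which encodes Sca-1, at 214 and 217 CPM in young and 219 and 201 CPM in aged MPP3s. Slamf1, which encodes CD150, was near the low end at 2.08 and 1.72 CPM in young and 1.52 and 1.58 CPM in aged MPP3s, against a mean of 58.7 CPM in young and 78.2 CPM in aged HSCs. Flt3 RNA was present although the gate is negative for its protein, at 279.9 and 315 CPM in young and 172 and 216 CPM in aged MPP3s, and its mean in young MPP4s was 1127 CPM. Mpo, myeloperoxidase, was at 3032 and 3259 CPM in young and 1639 and 1611 CPM in aged MPP3s. The libraries thus carried RNA of the positive antigens and little of CD150, as the gate requires. Of the 13 antigens tested 1 rose (7.69%, against 8.14% of all tested genes) and 3 fell (23.1%, against 5.79%). Kit (log2 fold change -0.39, adjusted p = 0.0108) and Flt3 (-0.57, adjusted p = 0.016) did not pass, although both aged libraries were below both young ones. Both were called under DESeq2 (adjusted p = 0.000397 for Kit and 3.09e-05 for Flt3) and with DESeq2 size factors, but not under every alternative. Cd48 was at 139.7 and 137 CPM in young and 213 and 222 CPM in aged MPP3s and rose (log2 fold change 0.70 ± 0.10 SE, adjusted p = 4.97e-05). Fcgr3, a low-affinity Fc receptor whose protein marks myeloid progenitors, fell by 1.35 on the log2 scale (adjusted p = 3.67e-06) from 22.0 and 18.9 to 8.48 and 6.98 CPM. The calls of Il7r and Itgam depended on single libraries. Il7r had 17 and 21 counts in young and 4 and 0 in aged MPP3s (adjusted p = 0.0048, with a range of 0.000171 to 0.0526 over the alternatives and values above 0.01 without Young replicate 1, Young replicate 2 or Aged replicate 2). Itgam, an integrin of myeloid cells, was at 57.2 and 61.2 CPM in young and 37.0 and 39.8 CPM in aged MPP3s (adjusted p = 0.00817, with a range of 7.7e-05 to 0.094 over the alternatives and values above 0.01 whichever of the 4 libraries was left out).

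Over all genes, 1152 were higher (8.14% of those tested) and 820 lower (5.79%) in aged MPP3s at an adjusted p under 0.01, the level the study used. These 2 shares are the background for the counts of each list below. All 1972 (13.9%) had both aged libraries above or below both young ones, where 25.8% of all tested genes had both aged libraries above and 39.3% below. The median log2 fold change of all tested genes was -0.04, with quartiles of -0.35 and 0.21. Upregulated genes moved little, with a median of 0.49, and 72 of them reached 1 log2 unit. Downregulated genes had a median of -0.84, and 343 reached that size. The level of a gene separated the directions. Among genes with a mean under 5 CPM, 17 were higher and 149 lower, and from 5 to 20 CPM 59 were higher and 169 lower. From 20 to 100 CPM 504 were higher and 338 lower, and at 100 CPM or more 572 were higher and 164 lower. The median log2 fold change of all tested genes also depended on level. From the lowest to the highest of these ranges it was -0.36, -0.14, 0.001 and 0.10. Which direction held the majority depended on the scaling. With DESeq2 size factors in place of TMM, 945 genes were higher and 991 lower, and DESeq2 itself called 1247 higher and 1539 lower. A single library also mattered, since leaving out Young replicate 1, Young replicate 2 or Aged replicate 2 left 1093, 1189 and 1093 genes called.

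**Figure D1:**
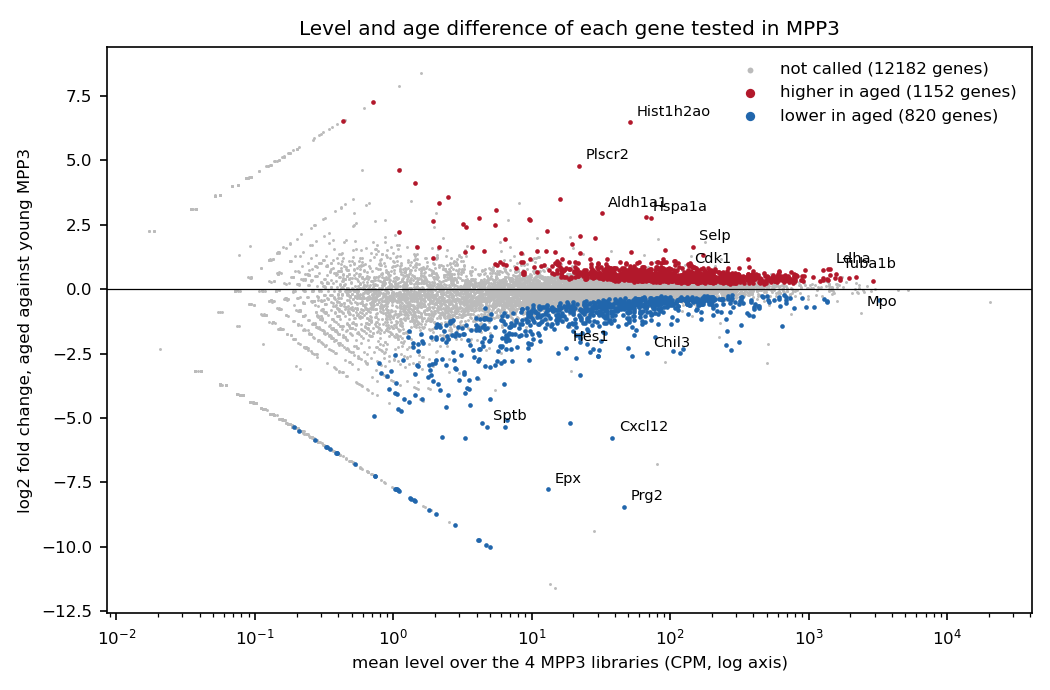
Each point is a gene tested in MPP3s, with its mean level over the 4 libraries (CPM, log axis) against its log2 fold change in aged against young cells, in red where higher and blue where lower at an adjusted p under 0.01. The 1152 higher genes lie close above 0 at high levels, and the 820 lower genes reach further down and to lower levels, while the diagonal streaks at the left are genes at 0 counts in both libraries of one age.

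Transcripts of other cell types were measured in the same libraries and moved with age, so their lists are given before the other results. In bulk RNA fewer cells of a type and less RNA per cell cannot be told apart. The erythroid list summed to 3924 and 3695 CPM in the young and 1514 and 1445 CPM in the aged libraries, and 20 of its 30 tested members fell while 1 rose. The macrophage list summed to 314 and 330.0 CPM against 102 and 113 CPM, with 11 of 16 lower. For stroma and endothelium the sums were 356 and 362 CPM against 194 and 214 CPM, with 5 of 16 lower, and 8 of the 21 listed genes were at 0 counts in both aged libraries. The list of B lineage genes summed to 363 and 337 CPM against 254 and 247 CPM, with 6 of 19 lower. Basophil, mast cell and eosinophil genes summed to 1018 and 1050 CPM against 707 and 795 CPM, with 6 of 20 lower and 1 higher. Genes of T, NK and innate lymphoid cells went the other way in sum, at 325 and 346 CPM against 357 and 365 CPM, with 3 of 24 lower and 0 higher, and 0 or 1 lower without single libraries. The groups of aged and young libraries did not overlap in any of these 6 sums. Of the tested members 66.67% were lower in the erythroid, 68.75% in the macrophage and 31.25% in the stroma and endothelium list. The share was 31.58% for the B lineage, 30% for basophils, mast cells and eosinophils and 12.5% for T, NK and innate lymphoid cells. Over all tested genes it was 5.79%. The single rises were 3.33% of the erythroid and 5% of the basophil, mast cell and eosinophil list, under the 8.14% of all tested genes. Without single libraries the counts of lower genes ran from 14 to 16 for the erythroid list, from 5 to 7 for the macrophage list, from 3 to 4 for stroma and endothelium and from 1 to 3 for the B lineage. The part of these transcripts in the other differences below was not tested.

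**Figure D2:**
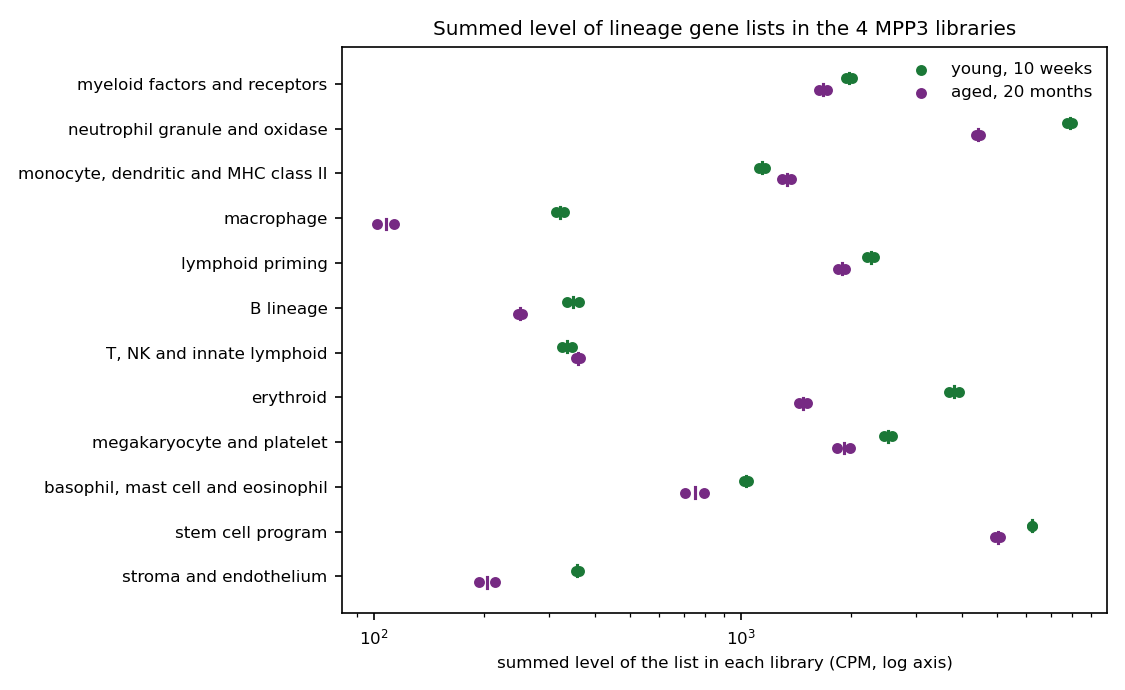
Summed level of each lineage list in each MPP3 library (CPM, log axis), green for young and purple for aged, with a bar at the mean of the 2 libraries. The erythroid, neutrophil and macrophage lists were lower in both aged libraries than in both young ones, at 1514 and 1445 CPM against 3924 and 3695 CPM for the erythroid list.

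Erythroid genes gave the lowest list median, -2.17, where all tested genes had -0.04 and those with a mean under 5 CPM had -0.36. Rhd, a blood group antigen of the red cell membrane (chr4:134864536-134896172, GRCm38), had 158 and 164 counts in young and 3 and 5 in aged MPP3s and fell by 5.36 on the log2 scale (SE 0.47, adjusted p = 1.99e-07). Sptb, the beta spectrin of the red cell skeleton, had 140 and 101 counts in young and 6 and 0 in aged MPP3s (log2 fold change -5.33 ± 0.62, adjusted p = 4.29e-06). Car1, a carbonic anhydrase of erythroid cells, was at 40.1 and 41.0 CPM in young and 4.00 and 3.83 CPM in aged MPP3s (log2 fold change -3.32 ± 0.54, adjusted p = 0.000131). Klf1, the transcription factor that directs erythroid genes, was at 10.8 and 11.2 CPM in young and 1.31 and 1.80 CPM in aged MPP3s (log2 fold change -2.77 ± 0.31, adjusted p = 2.34e-06), and Gata1, which acts above it, was at 10.3 and 8.78 CPM in young and 3.59 and 2.40 CPM in aged MPP3s (log2 fold change -1.62 ± 0.24, adjusted p = 4.28e-05). The fall thus covered regulators and structural proteins alike, with both aged libraries below both young ones. Tfrc, the transferrin receptor, which dividing cells of all kinds use to take up iron, was the 1 higher member at 35.3 and 30.5 CPM in young and 63.9 and 61.8 CPM in aged MPP3s (log2 fold change 0.98 ± 0.17, adjusted p = 0.000202). Across fractions the erythroid sum was also lower with age in MPP2s, at a mean of 4116 CPM in young and 1969 CPM in aged cells, in MPP4s (2072 and 945 CPM) and in GMPs (1506 and 354 CPM). In HSCs it was 3952 and 3714 CPM.

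Eosinophil granule genes fell from clear levels to a few counts. Prg2, eosinophil major basic protein (chr2:84980461-84983632), had 1301 and 1095 counts in young and 4 and 3 in aged MPP3s, which is 96.4 and 89.9 CPM against 0.276 and 0.225 CPM (log2 fold change -8.43 ± 0.61, adjusted p = 3.97e-08). Epx, eosinophil peroxidase, had 337 and 335 counts in young and 3 and 0 in aged MPP3s, a 243-fold difference with a counting interval of 82.7 to 1180. Ear1, an eosinophil-associated ribonuclease, had 119 and 120 counts in young and 0 and 0 in aged MPP3s and was at least 43.2-fold lower against a floor of 3 counts per library, and Prg3, a relative of Prg2, was at least 16.9-fold lower. Prss34, a protease of basophils and mast cells, was at 35.6 and 37.5 CPM in young and 0.690 and 1.28 CPM in aged MPP3s (log2 fold change -5.17 ± 0.39, adjusted p = 8.39e-07). Fcer1a, the alpha chain of the high-affinity IgE receptor of basophils and mast cells, rose from 9.71 and 8.54 to 28.3 and 32.2 CPM (log2 fold change 1.77 ± 0.32, adjusted p = 0.000866). Its call was lost without Young replicate 2, and the adjusted p had a range of 4.56e-12 to 0.0132 over the alternatives. Cpa3, the mast cell carboxypeptidase, did not pass the test at 189 and 189 CPM in young and 219.8 and 223 CPM in aged MPP3s (adjusted p = 0.0496). Granule genes of eosinophils and genes of basophils and mast cells were therefore not of one direction.

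Several transcripts that define marrow stroma fell to few or no counts. Cxcl12, the chemokine by which marrow stroma holds progenitors (chr6:117168535-117181367), was at 74.8 and 75.8 CPM in young and 1.03 and 1.65 CPM in aged MPP3s (log2 fold change -5.76 ± 0.61, adjusted p = 2.34e-06). Its mean was 62.4 CPM in young and 11.5 CPM in aged MPP2s, and at most 6.26 CPM in the groups of the other fractions. Lepr, the leptin receptor that marks perivascular stroma, had 142 and 117 counts in young and 0 and 0 in aged MPP3s and was at least 46.6-fold lower. Adipoq, adiponectin, had 77 and 66 counts in young and 0 and 0 in aged MPP3s and was at least 25.8-fold lower. The matricellular gene Ctgf had 112 and 101 counts in young and 0 and 0 in aged MPP3s and was at least 38.4-fold lower. The calls of Lepr and Ctgf were lost whichever of the 4 libraries was left out and under DESeq2, with a range of 0.00246 to 0.0448 for the adjusted p of Lepr and a range of 0.00145 to 0.439 for that of Ctgf over the alternatives. Fn1, fibronectin, had 127 and 92 counts in young and 3 and 3 in aged MPP3s, a 39.6-fold difference with a counting interval of 17.9 to 109. The scavenger receptors Stab1 and Stab2, of sinusoidal endothelium and macrophages, had 89 and 79 counts in young and 3 and 0 in aged MPP3s and 177 and 154 counts in young and 5 and 5 in aged MPP3s. Stab1 was called in the fit of all libraries (adjusted p = 0.00116) but not without Aged replicate 2 or under DESeq2, with a range of 0.000755 to 0.168 over the alternatives.

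Macrophage genes fell without exception among those called, 11 of 16, with a median of -2.08. Vcam1, the adhesion molecule of the central macrophages of erythroblastic islands and of stroma, was at 42.5 and 47.9 CPM in young and 8.27 and 7.65 CPM in aged MPP3s (log2 fold change -2.45 ± 0.21, adjusted p = 9.67e-08). Slc40a1, ferroportin, the iron exporter, was at 48.3 and 44.3 CPM in young and 7.24 and 10.7 CPM in aged MPP3s (log2 fold change -2.33 ± 0.18, adjusted p = 3.47e-08). Hmox1, which breaks down heme, was at 36.0 and 36.7 CPM in young and 5.72 and 5.40 CPM in aged MPP3s (log2 fold change -2.66 ± 0.27, adjusted p = 1.05e-06). C1qa and Axl, which take part in the clearance of dying cells, also fell, by 1.64 and 1.13 on the log2 scale. C1qa lost its call without Young replicate 2 or Aged replicate 2 (a range of 1.5e-09 to 0.0288 over the alternatives). All 16 tested members were below both young libraries in both aged ones, where this held for 39.3% of all genes.

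Many neutrophil genes fell, those of the later granules among them. Neutrophils build their granules in order during maturation, so that primary granule proteins mark early myeloid cells and secondary and tertiary granule proteins mark later stages. Of 33 tested genes 18 fell and 0 rose, with a median of -1.11 and a sum of 7774 and 8011 CPM in young and 4389 and 4478 CPM in aged libraries. Camp, the cathelicidin of secondary granules, was at 99.9 and 83.7 CPM in young and 14.5 and 14.8 CPM in aged MPP3s (log2 fold change -2.60 ± 0.29, adjusted p = 2.51e-06). Ngp, neutrophilic granule protein, was at 455 and 472 CPM in young and 66.6 and 108 CPM in aged MPP3s (log2 fold change -2.36 ± 0.24, adjusted p = 1.27e-06), and Ltf and Lcn2, lactoferrin and lipocalin 2, fell by 2.31 and 2.27 on the log2 scale. Chil3, a chitinase-like protein of myeloid cells (chr3:106147554-106167564), was at 119 and 114 CPM in young and 17.997 and 22.4 CPM in aged MPP3s (log2 fold change -2.48 ± 0.21, adjusted p = 7.7e-08). The 4 primary granule proteases and peroxidase of the list, Mpo, Elane, Prtn3 and Ctsg, did not pass the test. Mpo, whose per-library values are above, had an adjusted p of 0.091 (log2 fold change -0.91 ± 0.38), and Elane, neutrophil elastase, was at 327 and 339 CPM in young and 129 and 128 CPM in aged MPP3s with an adjusted p of 0.0119. Prtn3, proteinase 3, was at 293 and 305 CPM in young and 298 and 289.7 CPM in aged MPP3s (log2 fold change 0.02 ± 0.16, adjusted p = 0.962). Both aged libraries were below both young ones for Mpo and Elane although neither passed the threshold, and the groups overlapped for Prtn3. Without single libraries the count of lower genes was 15 to 16.

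The regulators of the myeloid lineage fell in part. Of 32 transcription factors and receptors 8 were lower (25%, against 5.79% of all tested genes) and 1 higher (3.1%, against 8.14%), with a median of -0.24. Irf8, which directs monocyte and dendritic cell fate, was at 76.1 and 78.6 CPM in young and 31.6 and 34.2 CPM in aged MPP3s (log2 fold change -1.19 ± 0.13, adjusted p = 2.19e-06). Csf1r, the receptor for macrophage colony-stimulating factor, was at 33.6 and 36.0 CPM in young and 14.1 and 12.8 CPM in aged MPP3s (log2 fold change -1.32 ± 0.20, adjusted p = 4.97e-05), and Cebpe, which drives the late granule genes, was at 7.64 and 6.65 CPM in young and 1.17 and 1.58 CPM in aged MPP3s (log2 fold change -2.33 ± 0.36, adjusted p = 7.65e-05). The factors that act earlier did not pass the test. Spi1, which encodes PU.1, was at 173 and 195 CPM in young and 146 and 172 CPM in aged MPP3s (adjusted p = 0.173), Cebpa at 42.8 and 41.8 CPM in young and 37.7 and 30.5 CPM in aged MPP3s (adjusted p = 0.225) and Gfi1 at 46.2 and 36.9 CPM in young and 34.8 and 33.2 CPM in aged MPP3s (adjusted p = 0.386). Il1r1, the receptor for interleukin 1, rose to 107 and 110.0 CPM from 52.9 and 56.1 CPM (log2 fold change 1.04 ± 0.17, adjusted p = 0.000161). Runx2 and Irf5, which the study named from these samples and so are no independent evidence, fell by 0.54 and 0.75 on the log2 scale. Runx2 was not called without Aged replicate 1 (a range of 3.2e-07 to 0.0128 over the alternatives), nor Irf5 whichever of the 4 libraries was left out (a range of 1.39e-06 to 0.0362). The count of lower genes in the list fell to 4 without Young replicate 1, Young replicate 2 or Aged replicate 2 and to 3 without Aged replicate 1. Genes of the MHC class II family, which serves antigen presentation, moved in both directions. Of 24 tested genes of monocytes, dendritic cells and MHC class II, 2 were higher (8.33%, against 8.14% of all tested genes) and 3 lower (12.5%, against 5.79%). These counts were 1 and 5 under DESeq2 and 4 and 3 when the 4 MPP3 libraries were fitted by themselves. H2-Ob, a chain of the H2-O molecule, fell and was at 72.4 and 74.3 CPM in young and 34.8 and 35.0 CPM in aged MPP3s (log2 fold change -1.02 ± 0.17, adjusted p = 0.000171). H2-Ab1 rose and was at 98.2 and 102 CPM in young and 233 and 257 CPM in aged MPP3s (log2 fold change 1.34 ± 0.18, adjusted p = 1.55e-05). H2-Eb1 was at 28.3 and 29.1 CPM in young and 74.3 and 76.5 CPM in aged MPP3s, but its call was lost under DESeq2 and whichever of the 4 libraries was left out (a range of 0.00121 to 0.0506 over the alternatives).

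Lymphoid and platelet genes that were called were lower, except Dntt. Of 24 genes of lymphoid priming 7 fell (29.2%, against 5.79% of all tested genes) and 1 rose (4.17%, against 8.14%). Their median was -0.57, which was -0.47 with genes at 0 in both aged libraries set to their bound. Mef2c, a factor needed for lymphoid progenitors, was at 170.4 and 166 CPM in young and 108 and 106 CPM in aged MPP3s (log2 fold change -0.61 ± 0.10, adjusted p = 0.000162). Tcf7, a factor of early T cells, was at 10.7 and 10.5 CPM in young and 3.17 and 1.88 CPM in aged MPP3s, with a call that was lost without Young replicate 1, Young replicate 2 or Aged replicate 2 (a range of 6.49e-05 to 0.0508 over the alternatives). Notch1 was at 85.2 and 72.0 CPM in young and 43.6 and 42.1 CPM in aged MPP3s (adjusted p = 0.00869), and was not called whichever of the 4 libraries was left out (a range of 0.00316 to 0.103). Without single libraries the count of lower genes in that list was 1 to 3. Hes1, the best known target of Notch signalling and outside that list, had the lowest p of all lower genes (chr16:30064384-30067796). It was at 26.4 and 32.7 CPM in young and 5.45 and 6.45 CPM in aged MPP3s (log2 fold change -2.26 ± 0.14, adjusted p = 7.32e-09). Dntt, which adds bases at the joints of rearranging receptor genes, rose by 0.40 on the log2 scale to 74.54 and 74.96 CPM, and was the one rise of the list. That rise was not called with DESeq2 size factors, with upper-quartile factors or without single libraries. Igll1, the surrogate light chain of B cell precursors, had 28 and 26 counts in young and 0 and 0 in aged MPP3s and was at least 9.75-fold lower. Of 24 megakaryocyte and platelet genes 9 fell (37.5%, against 5.79% of all tested genes) and 0 rose, with a median of -0.61. Pf4, platelet factor 4, was at 15.6 and 17.976 CPM in young and 2.48 and 2.40 CPM in aged MPP3s (log2 fold change -2.73 ± 0.42, adjusted p = 6.97e-05), and Gp5, a subunit of the von Willebrand factor receptor, was at 21.6 and 20.4 CPM in young and 9.86 and 9.15 CPM in aged MPP3s (log2 fold change -1.10 ± 0.18, adjusted p = 0.000111). That count was 5 without Young replicate 1, Aged replicate 1 or Aged replicate 2.

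**Figure D3:**
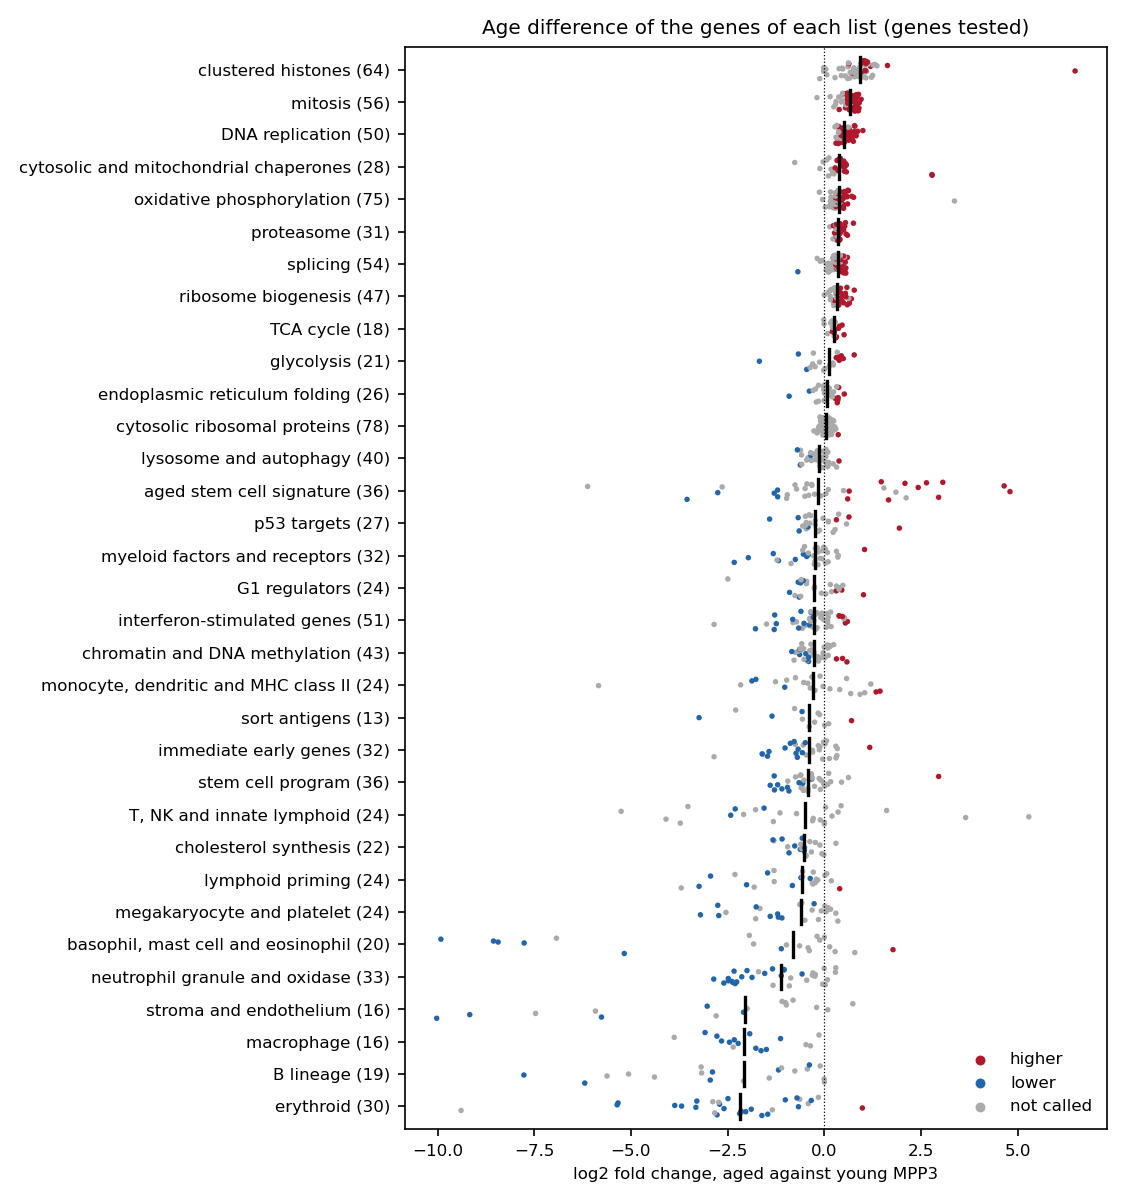
Each point is a tested gene of a list, at its log2 fold change in aged against young MPP3s, in red where higher, blue where lower and grey where not called, with a black bar at the list's median. Lists of cell division, respiration, splicing, the proteasome and chaperones lie above 0 (medians 0.25 to 0.91), and lists of mature lineages and stroma lie below it (down to -2.17).

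The genes of DNA replication and mitosis rose together. Cells copy their DNA with a helicase loaded at origins, polymerases and the enzymes that make deoxynucleotides, and then separate the copies under the control of cyclin-dependent kinases and the spindle checkpoint. Of 50 DNA replication genes 41 rose and 0 fell, with a median of 0.52, and both aged libraries were above both young ones for all 50, where this held for 25.8% of all genes. Their sum rose from 9326 and 9497 CPM to 12580 and 12990 CPM. Tyms, thymidylate synthase, was at 109 and 106 CPM in young and 189 and 189 CPM in aged MPP3s (log2 fold change 0.86 ± 0.08, adjusted p = 1.51e-07). Rrm1 and Rrm2, the subunits of ribonucleotide reductase, were at 459 and 479 CPM in young and 732 and 758 CPM in aged MPP3s and at 162 and 157 CPM in young and 277 and 250.4 CPM in aged MPP3s, with log2 fold changes of 0.71 ± 0.06 and 0.77 ± 0.08. Uhrf1, which carries DNA methylation over to the new strand, was at 388 and 378 CPM in young and 569.8 and 583 CPM in aged MPP3s (log2 fold change 0.64 ± 0.06, adjusted p = 4.69e-07). The helicase subunits, whose called members had log2 fold changes from 0.30 (Mcm3) to 0.53 (Mcm7), rose as well, Mcm7 from 654 and 648 to 911 and 904 CPM (log2 fold change 0.53 ± 0.07, adjusted p = 1.68e-05) and Mcm5 from 551 and 551 to 739 and 738 CPM (log2 fold change 0.47 ± 0.07, adjusted p = 2.51e-05). Without single libraries 31 to 37 replication genes were called.

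Promoters of these genes were read for the motif of E2F, the factor family that switches on replication genes at the start of S phase. Promoter sequences from RefSeq (GRCm38.p6, 250 bases before to 50 after the start) matched 10645 of the 14154 tested genes by symbol. The letters TTTCCCGC or TTTGGCGC, on either strand, were in 11 of 38 promoters of DNA replication genes (28.9%), in 2.98% of all tested promoters, in 7.65% of those of higher genes and in 1.66% of those of lower genes. The 250 bases upstream of the 2 called replication genes of lowest p that hold the motif there are shown, with E2F letters and CCAAT boxes (CCAAT on either strand) in capitals.
Mcm7, chr5:138171884-138172133, minus strand: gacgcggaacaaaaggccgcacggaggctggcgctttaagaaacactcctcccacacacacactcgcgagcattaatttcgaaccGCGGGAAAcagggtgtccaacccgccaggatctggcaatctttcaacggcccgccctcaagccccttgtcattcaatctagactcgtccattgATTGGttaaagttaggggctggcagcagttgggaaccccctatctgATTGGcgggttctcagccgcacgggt
Mcm5, chr8:75109259-75109508, plus strand: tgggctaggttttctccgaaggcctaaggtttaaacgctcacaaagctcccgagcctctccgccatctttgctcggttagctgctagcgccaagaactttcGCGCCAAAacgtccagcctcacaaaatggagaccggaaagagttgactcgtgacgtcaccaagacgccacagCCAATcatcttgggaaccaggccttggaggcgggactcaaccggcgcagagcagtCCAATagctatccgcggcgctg
In both promoters 1 E2F match and 2 CCAAT boxes lay upstream of the start, the E2F match beginning 165 bases before it in Mcm7 and 149 bases before it in Mcm5.

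Mitotic genes were higher in 44 of 56 cases and lower in 0, with a median of 0.66, and their sum went from 4252 and 4461 CPM to 6459 and 6858 CPM. Ccnb1, cyclin B1, was at 97.6 and 97.3 CPM in young and 180.3 and 170.0 CPM in aged MPP3s (log2 fold change 0.89 ± 0.08, adjusted p = 2.74e-07), and its kinase Cdk1 was at 101 and 102 CPM in young and 172 and 161 CPM in aged MPP3s (log2 fold change 0.76 ± 0.08, adjusted p = 1.76e-06). Ccna2, cyclin A2, was at 198 and 192 CPM in young and 334 and 329 CPM in aged MPP3s (log2 fold change 0.81 ± 0.08, adjusted p = 8.39e-07). Birc5, survivin, was at 73.2 and 74.4 CPM in young and 129 and 120.0 CPM in aged MPP3s (log2 fold change 0.80 ± 0.09, adjusted p = 2.34e-06), and its partner in the chromosomal passenger complex, the kinase Aurkb, was at 98.8 and 108 CPM in young and 176 and 192 CPM in aged MPP3s (log2 fold change 0.88 ± 0.10, adjusted p = 2.87e-06). Aurka, the spindle pole kinase, rose from 54.9 and 53.9 to 90.7 and 90.9 CPM (log2 fold change 0.78 ± 0.11, adjusted p = 2.16e-05). The study had named both Aurora kinases from these samples, so their rise is not independent evidence. Kpna2, an importin that carries proteins into the nucleus, and Cenpv, a centromere protein, were among the 10 higher genes of lowest p, at 103 and 96.0 CPM in young and 184 and 186 CPM in aged MPP3s and at 12.1 and 11.7 CPM in young and 48.1 and 43.1 CPM in aged MPP3s. Mki67, the common marker of proliferation, did not pass the test at 112 and 109.6 CPM in young and 161 and 136 CPM in aged MPP3s (log2 fold change 0.47 ± 0.21, adjusted p = 0.105). Without single libraries 33 to 44 mitotic genes were called.

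Promoters of mitotic genes are known for the CHR element beside CCAAT boxes, through which repressors hold them off outside G2 and M phase. TTTGAA or TTTAAA was in 35 of 45 mitotic promoters (77.8%) and in 19.1% of all, and CCAAT was in 33 of 45 (73.3%) and in 38.5% of all. For the replication genes the shares were 21.1% and 57.9%. The 2 mitotic genes first in rank of p among those with the CHR letters upstream are shown, with CHR letters and CCAAT boxes of either strand in capitals.
Ccnb1, chr13:100786487-100786736, minus strand: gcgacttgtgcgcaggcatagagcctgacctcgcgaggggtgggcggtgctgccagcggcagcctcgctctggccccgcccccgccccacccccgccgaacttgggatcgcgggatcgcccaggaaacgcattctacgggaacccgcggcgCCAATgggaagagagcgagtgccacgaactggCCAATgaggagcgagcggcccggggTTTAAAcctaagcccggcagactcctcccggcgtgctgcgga
Cdk1, chr10:69352913-69353162, minus strand: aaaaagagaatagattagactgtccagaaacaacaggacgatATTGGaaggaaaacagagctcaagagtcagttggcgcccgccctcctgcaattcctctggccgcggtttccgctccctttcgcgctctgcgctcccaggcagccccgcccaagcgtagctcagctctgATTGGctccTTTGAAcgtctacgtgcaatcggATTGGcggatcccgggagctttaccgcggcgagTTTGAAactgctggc
In Ccnb1 a CHR match began 42 bases before the start, with CCAAT boxes 99 and 67 bases before it. In Cdk1 the CHR matches were 71 and 15 bases before the start, with CCAAT boxes at 208, 80 and 48 bases. Birc5, whose sequence is not shown, had its CHR match 220 bases before the start and no CCAAT box upstream.

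Replication-dependent histones, which package the newly copied DNA, rose with the replication genes. Of 64 tested genes of the histone clusters 18 were higher and 0 lower, with a median of 0.91, and the sum went from 1158 and 1135 CPM to 2292 and 2016 CPM. Copies of histone H2A such as Hist1h2ad, at 61.5 and 62.3 CPM in young and 129 and 118 CPM in aged MPP3s (log2 fold change 1.05 ± 0.15, adjusted p = 3.62e-05), and Hist1h2ak, at 28.9 and 28.7 CPM in young and 59.9 and 56.9 CPM in aged MPP3s (log2 fold change 1.07 ± 0.15, adjusted p = 3.68e-05), carried most of the calls. These copies are nearly identical and the counting could split reads among them, so their values are not separate measurements. Hist1h2ao, with the largest fitted rise of all named genes, had 16 and 14 counts in young and 28 and 2689 in aged MPP3s, so that the rise was in Aged replicate 2 alone. Its adjusted p was 0.00889 and had a range of 7.7e-05 to 0.863 over the alternatives, with the highest value without Aged replicate 2. Leaving out Young replicate 2 lowered the histone count to 11.

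The brakes and starters of G1 did not move as one. Of 24 regulators 3 rose (12.5%, against 8.14% of all tested genes) and 5 fell (20.8%, against 5.79%), with a median of -0.26. Cdk4, a kinase that starts the cycle, was at 619 and 634 CPM in young and 829 and 828 CPM in aged MPP3s (log2 fold change 0.45 ± 0.07, adjusted p = 0.000156). Cdkn2c, an inhibitor of that kinase, rose to 65.6 and 61.3 CPM from 34.0 and 31.1 CPM (log2 fold change 1.01 ± 0.10, adjusted p = 4.83e-07). Ccnd2, the cyclin that activates Cdk4, fell from 297 and 322 to 154 and 167 CPM (log2 fold change -0.90 ± 0.13, adjusted p = 2.83e-05). Cdkn1a, the p53-induced inhibitor p21, was at 41.1 and 43.8 CPM in young and 24.8 and 27.5 CPM in aged MPP3s (log2 fold change -0.65 ± 0.13, adjusted p = 0.000803), and was not called without Young replicate 2 or Aged replicate 1 (a range of 1.07e-06 to 0.0195 over the alternatives). The count of lower regulators was 1 to 3 without single libraries. Myc, a driver of growth, did not pass the test at 534 and 583 CPM in young and 506 and 589.8 CPM in aged MPP3s (log2 fold change 0.02 ± 0.18, adjusted p = 0.977). Among 27 targets of p53 3 rose (11.1%) and 4 fell (14.8%), against the same 8.14% and 5.79%. Fewer fell whichever of the 4 libraries was left out. Plk2, a stress-induced kinase, was at 56.4 and 66.0 CPM in young and 19.3 and 25.1 CPM in aged MPP3s (log2 fold change -1.42 ± 0.18, adjusted p = 1.68e-05).

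Many genes of respiration and central metabolism were upregulated. The respiratory chain passes electrons through its complexes to build the gradient that drives ATP synthase. Of 75 nuclear genes of oxidative phosphorylation 40 rose and 0 fell, with a median of 0.37, and 68 had both aged libraries above both young ones. Cyc1, cytochrome c1 of complex III, was at 160.3 and 162 CPM in young and 247 and 262 CPM in aged MPP3s (log2 fold change 0.71 ± 0.08, adjusted p = 4.23e-06). Uqcrq, of the same complex, was at 47.3 and 50.7 CPM in young and 76.1 and 84.1 CPM in aged MPP3s (log2 fold change 0.76 ± 0.11, adjusted p = 5.33e-05), and Atp5b, the catalytic subunit of ATP synthase, was at 1686 and 1717 CPM in young and 2226 and 2237 CPM in aged MPP3s (log2 fold change 0.44 ± 0.05, adjusted p = 2.25e-06). The count was 26 without Young replicate 2 and 24 without Aged replicate 2. Genes of the mitochondrial genome were not analysed here. In the TCA cycle 10 of 18 genes rose and 0 fell, with a median of 0.25, led by Idh3a, a subunit of isocitrate dehydrogenase, at 195 and 199 CPM in young and 264 and 279 CPM in aged MPP3s (log2 fold change 0.51 ± 0.06, adjusted p = 6.24e-06). That count was 6 without Young replicate 1 or Aged replicate 2 and 4 when the 4 MPP3 libraries were fitted by themselves. Idh2, which the study named from these samples, did not pass the test at 438 and 456 CPM in young and 492 and 537 CPM in aged MPP3s (adjusted p = 0.0294). Glycolysis split, with 7 of 21 genes higher (33.3%, against 8.14% of all tested genes) and 3 lower (14.3%, against 5.79%). Ldha, the lactate dehydrogenase subunit that favours lactate (chr7:46841475-46855627), was at 1095 and 1052 CPM in young and 1787 and 1757 CPM in aged MPP3s (log2 fold change 0.77 ± 0.06, adjusted p = 5.13e-08), while Ldhb, the subunit that favours pyruvate, fell by 0.67 on the log2 scale. Ldhb was not called without Young replicate 2 or Aged replicate 1. Aldoc, an aldolase, fell from 34.1 and 36.6 to 10.8 and 10.6 CPM (log2 fold change -1.68 ± 0.30, adjusted p = 0.000341).

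**Figure D4:**
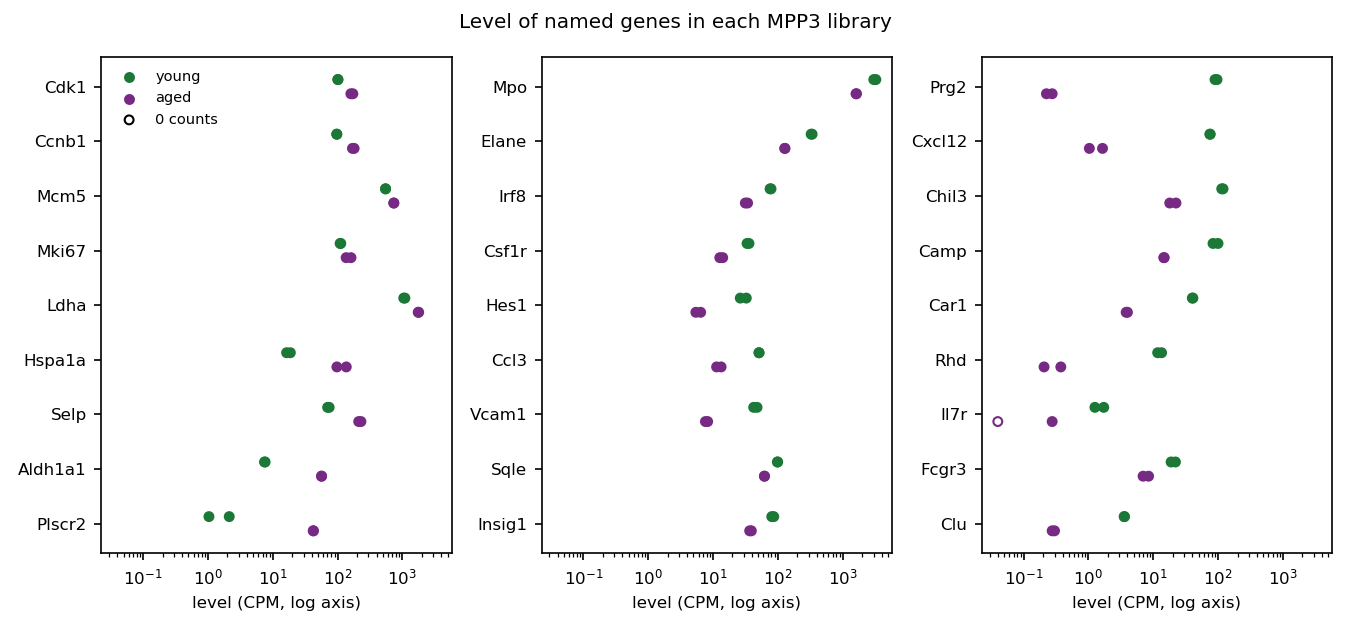
Level of 27 genes in each MPP3 library (CPM, log axis), green for young and purple for aged, with an open point at the left edge for a library at 0 counts. The left panel holds genes of division, metabolism and stress, higher in the aged libraries, the middle panel genes of myeloid fate, signalling and sterols, and the right panel genes of mature lineages, stroma, the gate and the aged stem cell signature, lower in the aged libraries.

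Genes that build ribosomes and splice messenger RNA rose in number, while genes of the ribosomal proteins did not. Of 47 genes of ribosome biogenesis 25 rose and 0 fell, with a median of 0.33. Fbl, fibrillarin, which methylates ribosomal RNA, was at 244 and 255 CPM in young and 350.0 and 378 CPM in aged MPP3s (log2 fold change 0.59 ± 0.07, adjusted p = 2.34e-06), and Noc4l, a factor of the small subunit, was at 66.9 and 76.0 CPM in young and 110.1 and 126 CPM in aged MPP3s (log2 fold change 0.77 ± 0.09, adjusted p = 4.93e-06). The count was 16 without Young replicate 1 and 11 when the 4 MPP3 libraries were fitted by themselves. Of 78 genes of cytosolic ribosomal proteins 1 rose and 0 fell, and their median of 0.03 became -0.01 with DESeq2 size factors. Splicing genes rose in 25 of 54 cases with 1 lower and a median of 0.35. Srsf2, a splicing factor named by the study from these samples, was at 673 and 649 CPM in young and 901 and 896 CPM in aged MPP3s (log2 fold change 0.49 ± 0.05, adjusted p = 4.05e-07), and Eftud2, a GTPase of the U5 particle, was at 310.2 and 328 CPM in young and 406 and 436 CPM in aged MPP3s (log2 fold change 0.45 ± 0.06, adjusted p = 1.44e-05). Srsf5, of the same family as Srsf2, fell from 496 and 508 to 311 and 293 CPM (log2 fold change -0.69 ± 0.09, adjusted p = 9.25e-06). Leaving out Young replicate 2 or Aged replicate 2 lowered the count of higher splicing genes to 16. Ddx39, an RNA helicase of mRNA export, was among the 10 higher genes of lowest p, at 149.7 and 151 CPM in young and 237 and 247 CPM in aged MPP3s.

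Many genes of the proteasome and many cytosolic and mitochondrial chaperones rose. Of 31 proteasome genes 24 were higher and 0 lower, with a median of 0.36, and 30 had both aged libraries above both young ones. Psmd13, of the regulatory particle, was at 136 and 131 CPM in young and 220.3 and 215 CPM in aged MPP3s (log2 fold change 0.75 ± 0.07, adjusted p = 2.74e-07), and Psmb5, a catalytic subunit of the core, was at 134 and 126 CPM in young and 192 and 179 CPM in aged MPP3s (log2 fold change 0.56 ± 0.08, adjusted p = 3.36e-05). With DESeq2 size factors the count was 15, and when the 4 MPP3 libraries were fitted by themselves 14. Among 28 cytosolic and mitochondrial chaperones 18 rose and 0 fell, with a median of 0.37. Subunits of the TRiC ring, which folds actin and tubulin, rose together, with Cct8 at 454 and 455 CPM in young and 619 and 673 CPM in aged MPP3s (log2 fold change 0.55 ± 0.06, adjusted p = 5.94e-07) and Tcp1 at 319.7 and 318 CPM in young and 450.0 and 429 CPM in aged MPP3s (log2 fold change 0.51 ± 0.06, adjusted p = 3.19e-06). Hspa1a and Hspa1b, the stress-induced copies of HSP70 (chr17:34969190-34972156 and chr17:34956436-34959238), rose far more. Hspa1a was at 16.4 and 18.7 CPM in young and 97.8 and 136 CPM in aged MPP3s (log2 fold change 2.79 ± 0.48, adjusted p = 0.000227) and Hspa1b at 16.9 and 20.9 CPM in young and 102 and 149 CPM in aged MPP3s (log2 fold change 2.78 ± 0.48, adjusted p = 0.000213). The pair is nearly identical in sequence, so the counts of the copies cannot be told apart. Hspa1a was also higher with age in each of the other fractions in the mean, from 20.8 to 109 CPM in MPP2s and from 13.8 to 133 CPM in MPP4s. In the endoplasmic reticulum 6 of 26 folding genes rose (23.1%, against 8.14% of all tested genes) and 2 fell (7.69%, against 5.79%), with a median of 0.08. Calr, calreticulin, named by the study from these samples, was at 1142 and 1057 CPM in young and 1342 and 1337 CPM in aged MPP3s (log2 fold change 0.33 ± 0.05, adjusted p = 2.44e-05) and was not called when the 4 MPP3 libraries were fitted by themselves (a range of 1.68e-10 to 0.0134 over the alternatives), and Dnajb9, a co-chaperone induced by unfolded protein, fell from 83.5 and 75.9 to 39.6 and 42.5 CPM (log2 fold change -0.91 ± 0.13, adjusted p = 2.23e-05).

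Heat shock elements, where HSF1 binds, were searched on either strand as 3 alternating blocks of GAA and TTC set 2 bases apart. They were in 3 of 22 chaperone promoters (13.6%) and in 0.432% of all. Hspe1, the mitochondrial co-chaperonin whose promoter lies between it and its partner Hspd1, is shown because it was the called chaperone of lowest p with the letters upstream. Overlapping matches are in capitals.
Hspe1, chr1:55087898-55088147, plus strand: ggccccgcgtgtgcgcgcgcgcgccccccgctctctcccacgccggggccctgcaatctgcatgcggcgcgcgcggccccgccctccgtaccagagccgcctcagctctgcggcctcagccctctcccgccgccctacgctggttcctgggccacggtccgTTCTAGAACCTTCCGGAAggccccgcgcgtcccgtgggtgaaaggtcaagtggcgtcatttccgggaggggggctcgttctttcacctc
The matches began 89 and 84 bases before the start. Hspe1 was at 88.0 and 78.7 CPM in young and 123 and 116 CPM in aged MPP3s (log2 fold change 0.57 ± 0.10, adjusted p = 0.000171), and Hspd1 was at 408 and 429 CPM in young and 539 and 619 CPM in aged MPP3s (log2 fold change 0.52 ± 0.06, adjusted p = 5e-06).

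Several genes of cholesterol synthesis fell. The factor SREBP2 drives these genes when sterol is short, and Insig proteins hold it back. Of 22 genes 9 were lower and 0 higher, with a median of -0.52, and 19 had both aged libraries below both young ones, where this held for 39.3% of all genes. Their sum went from 1531 and 1557 CPM to 1029 and 1024 CPM. Insig1 was at 86.7 and 80.8 CPM in young and 39.1 and 36.8 CPM in aged MPP3s (log2 fold change -1.09 ± 0.13, adjusted p = 5.39e-06), and Sqle, squalene epoxidase, was at 98.7 and 99.6 CPM in young and 62.5 and 62.1 CPM in aged MPP3s (log2 fold change -0.62 ± 0.10, adjusted p = 0.000162). Srebf2, which encodes SREBP2, fell by 0.57 on the log2 scale (adjusted p = 0.000335), and was not called without Aged replicate 1 (a range of 1.61e-08 to 0.0103 over the alternatives). The count was 16 under DESeq2 and 5 without Young replicate 1 or Aged replicate 2. CCAAT boxes, which bind NF-Y beside SREBP2, were in 15 of 16 promoters of the list that were matched (93.8%) and in 38.5% of all. Insig1 is shown as the lower gene of lowest p with a box upstream, in capitals.
Insig1, chr5:28071162-28071411, plus strand: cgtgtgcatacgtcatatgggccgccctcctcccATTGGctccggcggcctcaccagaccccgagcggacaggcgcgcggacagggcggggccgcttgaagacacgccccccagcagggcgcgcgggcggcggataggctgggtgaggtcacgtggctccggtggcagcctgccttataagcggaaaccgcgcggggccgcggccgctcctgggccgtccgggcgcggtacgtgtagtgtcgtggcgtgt
The box began 216 bases before the start.

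Immediate early genes, which cells switch on within minutes of a signal, were lower in 11 and higher in 1 of 32 cases, with a median of -0.41. These are 34.4% lower and 3.1% higher, against 5.79% and 8.14% of all tested genes. Nr4a1, an orphan nuclear receptor, was at 903 and 974 CPM in young and 281 and 392 CPM in aged MPP3s (log2 fold change -1.43 ± 0.18, adjusted p = 1.07e-05). Dusp2, a phosphatase that ends MAP kinase signalling, was at 500.0 and 509.6 CPM in young and 239 and 244 CPM in aged MPP3s (log2 fold change -1.02 ± 0.10, adjusted p = 3.3e-07), and Ier2 was at 959.9 and 1027 CPM in young and 529.5 and 628 CPM in aged MPP3s (log2 fold change -0.73 ± 0.10, adjusted p = 1.59e-05). Klf2, a factor that keeps cells at rest, rose from 232 and 223 to 494 and 500.0 CPM (log2 fold change 1.17 ± 0.22, adjusted p = 0.000584). Fos and Jun, which pair as the factor AP-1, did not pass the test. Fos was at 4493 and 4702 CPM in young and 4118 and 4512 CPM in aged MPP3s (log2 fold change -0.04 ± 0.22, adjusted p = 0.935) and Jun at 1625 and 1783 CPM in young and 1659 and 2400 CPM in aged MPP3s (adjusted p = 0.272). Egr1 was at 1776 and 2001 CPM in young and 1159 and 1487 CPM in aged MPP3s with an adjusted p of 0.0139, which passed with DESeq2 size factors and had a range of 0.000124 to 0.257 over the alternatives. Without Young replicate 1, Young replicate 2 or Aged replicate 1 the count of lower genes was 5, 6 and 5. The chemokine Ccl3, outside that list, was among the 10 lower genes of lowest p at 51.3 and 51.4 CPM in young and 11.4 and 13.4 CPM in aged MPP3s (log2 fold change -2.01 ± 0.14, adjusted p = 2.88e-08), as was Ltb, lymphotoxin beta, at 146 and 148 CPM in young and 52.5 and 60.1 CPM in aged MPP3s (log2 fold change -1.34 ± 0.12, adjusted p = 1.99e-07).

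Interferon-stimulated genes split as well, with 11 of 51 lower (21.6%), 5 higher (9.8%) and a median of -0.27. Over all tested genes 5.79% were lower and 8.14% higher. Antiviral genes were among those that fell, with Rsad2, viperin, at 50.9 and 52.0 CPM in young and 19.8 and 22.3 CPM in aged MPP3s (log2 fold change -1.24 ± 0.14, adjusted p = 1.7e-06) and Ifit1, which binds viral RNA, at 32.6 and 34.8 CPM in young and 12.963 and 13.6 CPM in aged MPP3s (log2 fold change -1.30 ± 0.22, adjusted p = 0.000162). Genes of antigen processing were among those that rose, with Psmb8 and Psmb9 of the immunoproteasome and the peptide transporter Tap1 at log2 fold changes of 0.47, 0.39 and 0.38. Ifi47, an interferon-induced GTPase, was at 173 and 156 CPM in young and 249.26 and 232 CPM in aged MPP3s (log2 fold change 0.60 ± 0.09, adjusted p = 4.19e-05). The count of lower genes was 21 under DESeq2 and 4, 5, 4 and 3 without Young replicate 1, Young replicate 2, Aged replicate 1 and Aged replicate 2. The interferon-stimulated response element (ISRE), on either strand, was in 19 of 37 promoters of the list (51.4%) and in 3.17% of all, and in 3.15% of promoters of higher genes and 3.97% of those of lower genes. Rsad2 is shown as the lower gene of lowest p that holds it upstream, in capitals.
Rsad2, chr12:26456453-26456702, minus strand: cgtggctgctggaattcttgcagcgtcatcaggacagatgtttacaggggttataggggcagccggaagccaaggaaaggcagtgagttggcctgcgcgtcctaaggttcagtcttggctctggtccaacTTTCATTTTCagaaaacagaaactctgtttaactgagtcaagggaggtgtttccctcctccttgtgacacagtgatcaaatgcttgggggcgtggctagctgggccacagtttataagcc
The match began 120 bases before the start.

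Genes of the stem cell state that were called were lower, except Aldh1a1, and genes known to mark aged HSCs were divided. Of 36 genes of the stem cell program 10 fell (27.8%, against 5.79% of all tested genes) and 1 rose (2.78%, against 8.14%), with a median of -0.42. Mllt3, which sustains HSC self-renewal, was at 49.6 and 46.5 CPM in young and 21.7 and 21.7 CPM in aged MPP3s (log2 fold change -1.10 ± 0.11, adjusted p = 5.58e-07), and Hlf, a factor of HSCs, was at 503 and 451 CPM in young and 275 and 214 CPM in aged MPP3s (log2 fold change -0.92 ± 0.16, adjusted p = 0.000255). Hlf was not called without Aged replicate 2 (a range of 2.32e-14 to 0.0169 over the alternatives), and the count of lower genes was 5 without Young replicate 1, Aged replicate 1 or Aged replicate 2. Lmo2, a bridge between blood transcription factors that the study named from these samples, was at 1014 and 1000 CPM in young and 761 and 792 CPM in aged MPP3s (log2 fold change -0.33 ± 0.06, adjusted p = 0.000267), and was not called when the 4 MPP3 libraries were fitted by themselves (a range of 4.48e-12 to 0.012 over the alternatives). Of 36 genes of the aged stem cell signature 11 rose (30.6%, against 8.14% of all tested genes) and 5 fell (13.9%, against 5.79%), with a median of -0.17. Plscr2, of the phospholipid scramblase family (chr9:92275602-92297752), was at 1.04 and 2.13 CPM in young and 42.1 and 42.5 CPM in aged MPP3s (log2 fold change 4.80 ± 0.25, adjusted p = 7.32e-09). Aldh1a1, an aldehyde dehydrogenase that makes retinoic acid (chr19:20492715-20643465), was at 7.64 and 7.47 CPM in young and 56.7 and 56.6 CPM in aged MPP3s (log2 fold change 2.95 ± 0.22, adjusted p = 3.47e-08) and stands in both lists as their one shared rise. Selp, the adhesion molecule P-selectin (chr1:164115264-164150026), was at 70.3 and 74.3 CPM in young and 212 and 229.6 CPM in aged MPP3s (log2 fold change 1.66 ± 0.14, adjusted p = 9.67e-08). Bmpr1a, a receptor for bone morphogenetic proteins, was at 1.33 and 1.07 CPM in young and 10.1 and 9.53 CPM in aged MPP3s (log2 fold change 3.06 ± 0.46, adjusted p = 8.04e-05), and C4b, a complement component, was at 7.26 and 10.2 CPM in young and 35.7 and 35.7 CPM in aged MPP3s (log2 fold change 2.08 ± 0.30, adjusted p = 8.11e-05). Clu, clusterin, went the other way, with 48 and 44 counts in young and 4 and 4 in aged MPP3s (log2 fold change -3.55 ± 0.50, adjusted p = 2.77e-05). Selp and Clu were named by the study from these samples. Leaving out Young replicate 1 lowered the rises to 6 and the falls to 1, and without the other libraries the falls were 1 or 2.

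Some chromatin regulators and few lysosomal genes were called. Of 43 chromatin genes 3 rose (6.98%, against 8.14% of all tested genes) and 7 fell (16.3%, against 5.79%), with a median of -0.27. Dnmt1, which copies DNA methylation at replication, was at 464 and 521 CPM in young and 638 and 788 CPM in aged MPP3s (log2 fold change 0.58 ± 0.08, adjusted p = 4.13e-05) but not called when the 4 MPP3 libraries were fitted by themselves, and Kdm5b, a histone demethylase, was at 136 and 146 CPM in young and 81.4 and 93.7 CPM in aged MPP3s (log2 fold change -0.64 ± 0.08, adjusted p = 9.25e-06). The count of lower genes was 13 under DESeq2, 3 without Aged replicate 1 and 1 without each of the others. Of 40 genes of the lysosome and autophagy 1 rose (2.5%, against 8.14% of all tested genes) and 3 fell (7.5%, against 5.79%). Foxo1, a factor that induces autophagy, led the falls at 45.1 and 46.6 CPM in young and 28.2 and 26.5 CPM in aged MPP3s (log2 fold change -0.70 ± 0.13, adjusted p = 0.000373). The falls were 11 under DESeq2, and fewer whichever of the 4 libraries was left out. Other large rises lay outside the lists. Tmem215, a membrane protein, was at 3.34 and 2.05 CPM in young and 27.9 and 31.2 CPM in aged MPP3s (log2 fold change 3.49 ± 0.37, adjusted p = 2.34e-06), Clec1a, a C-type lectin, at 2.82 and 2.54 CPM in young and 13.7 and 19.5 CPM in aged MPP3s (log2 fold change 2.67 ± 0.32, adjusted p = 1.28e-05), Abca4, a lipid transporter, at 4.97 and 4.10 CPM in young and 19.4 and 23.3 CPM in aged MPP3s (log2 fold change 2.28 ± 0.27, adjusted p = 1.82e-05) and Emilin2, a protein of the extracellular matrix, at 42.4 and 55.2 CPM in young and 126 and 142 CPM in aged MPP3s (log2 fold change 1.51 ± 0.11, adjusted p = 1.23e-08). Ggt1, Homer2 and Wwtr1 were also among the 15 largest rises, with log2 fold changes of 2.76, 2.53 and 2.42. Ggt1 lost its call without Young replicate 1 or Aged replicate 2, Homer2 whichever of the 4 libraries was left out and Wwtr1 without Young replicate 2, with a range of 3.26e-06 to 0.0469, a range of 0.000116 to 0.064 and a range of 1.06e-09 to 0.0122 over the alternatives.

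The age difference in MPP3s was then tested against that in MPP4s, MPP2s and GMPs, each with its own 2 libraries per age. Each value is the log2 fold change in MPP3s minus that in the other fraction. A greater difference means a positive value and a smaller one a negative value, whatever the size of the changes. A smaller difference can thus be a larger fall in MPP3s. Against MPP4s 3 genes had a greater difference (0.0212% of those tested) and 22 a smaller one (0.155%). Irf8 had the lowest p, with a fall of 1.19 on the log2 scale in MPP3s beside a change of 0.51 in MPP4s, a difference of -1.70 (adjusted p = 9.97e-05). Its mean went from 77.3 to 32.9 CPM in MPP3s and from 74.9 to 100.4 CPM in MPP4s. Csf1r differed in the same sense, by -1.73 (adjusted p = 0.00274). So did genes of later myeloid cells. Hp, haptoglobin, differed by -3.88 (adjusted p = 0.000126), Chil3 by -2.52 (adjusted p = 0.000937), Ngp by -2.59 (adjusted p = 0.00137) and Clec12a, an inhibitory lectin of myeloid cells, by -1.34 (adjusted p = 0.000589). For Hp the means were 0.785 and 3.66 CPM in young and aged MPP4s, so the rise there was at a low level. Cpa3 led the greater differences, at 1.83 (adjusted p = 0.000126), with a fall of 1.55 on the log2 scale in MPP4s, where it was at 5.95 and 1.90 CPM in the mean. Of the neutrophil list 5 of 33 genes had a smaller difference than in MPP4s. Of the 50 replication genes, the 56 mitotic genes and the 75 respiratory genes 0 differed in either sense. Over all tested genes 0.177% did, so these counts are near that share and do not show an equal age difference. Without Young replicate 1, Young replicate 2 or Aged replicate 2 of MPP3s the genes called against MPP4s numbered 15, 13 and 12, and DESeq2 called 76.

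Against MPP2s 2 genes had a greater and 2 a smaller difference (0.0141% each, and 0.0283% together). Prg2 and Epx fell in MPP3s and did not pass the test in MPP2s, where the means in young and aged cells were 63.2 and 45.9 CPM for Prg2 and 11.3 and 20.5 CPM for Epx. The differences were -8.02 (adjusted p = 2.13e-05) and -8.67 (adjusted p = 0.00138). Mcpt8, a basophil protease, differed by 2.80 (adjusted p = 0.00349) and Cpa3 by 1.08 (adjusted p = 0.0018). All 4 are genes of eosinophils, basophils and mast cells. For Prg2 the means in young and aged cells were 24.5 and 0.275 CPM in MPP1s, another fraction of the series, and 977 and 2113 CPM in GMPs. For Epx they were 6.04 and 0 CPM in MPP1s and 265 and 953 CPM in GMPs. MPP1s were not tested against MPP3s. Without Young replicate 1 or Young replicate 2 of MPP3s 2 genes were called, and without Aged replicate 2 1 gene, while DESeq2 called 30 and a fit of the 8 libraries alone 23.

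**Figure D5:**
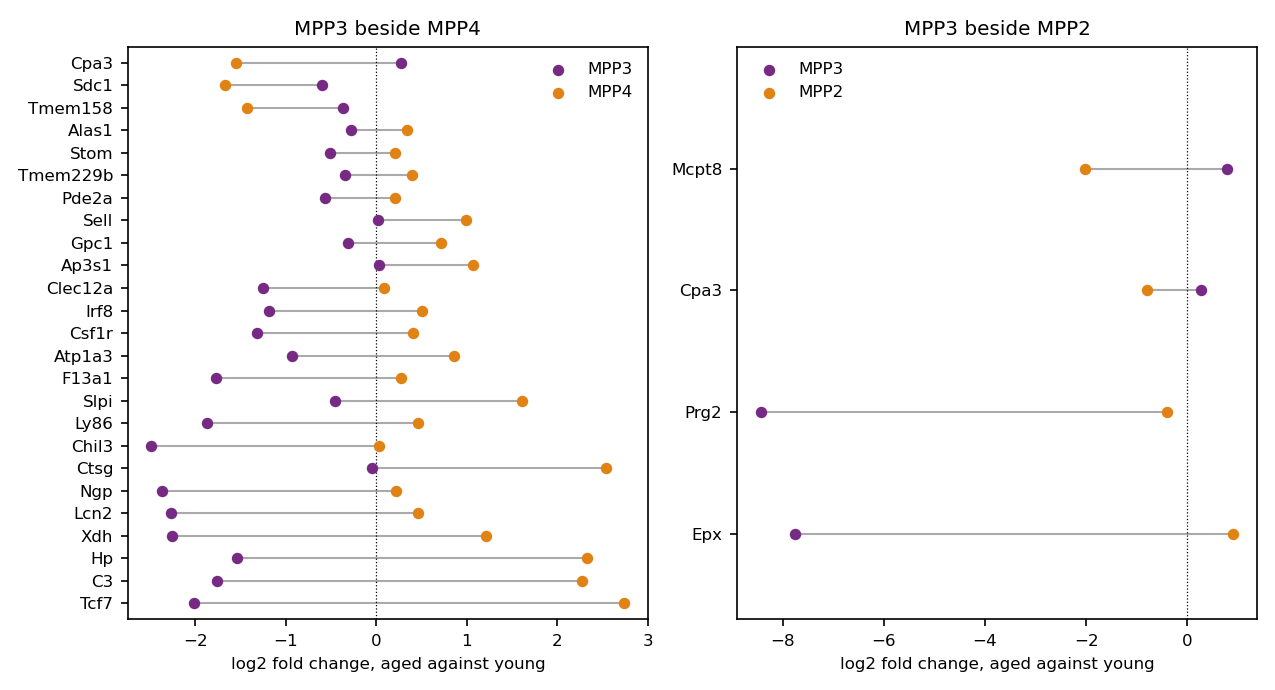
Genes whose age difference in MPP3s differed from that in MPP4s (left) or MPP2s (right) at an adjusted p under 0.01, with the log2 fold change of aged against young cells in MPP3s (purple) and in the other fraction (orange). Most of the 25 genes on the left were lower with age in MPP3s and higher in MPP4s, such as Irf8 at -1.19 and 0.51.

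Against GMPs, the next stage, 1463 genes had a greater difference (10.3%) and 1319 a smaller one (9.32%), together 19.7% of those tested. Replication genes differed in 38 of 50 cases, all greater in MPP3s, where their median was 0.52 against -0.16 in GMPs. Oxidative phosphorylation differed in 47 of 75 genes, all greater (medians 0.37 and -0.19), and the proteasome in 24 of 31, all greater (0.36 and -0.23). Mitotic genes rose in both, with medians of 0.66 and 0.58, and 6 differed in the greater and 7 in the smaller sense. Srsf2 had the lowest p among the greater differences, at 1.34 (adjusted p = 1.6e-11), with 661 and 899 CPM in the mean of young and aged MPP3s and 1391 and 804 CPM in GMPs. Slbp, which binds histone messages, differed by 1.04, and Odc1, which starts polyamine synthesis, by 1.12. Immediate early genes differed in 19 of 32 cases, all smaller in MPP3s, with medians of -0.41 and 0.94. Egr1 differed by -8.19 (adjusted p = 1.31e-13). Its means were 1889 and 1323 CPM in young and aged MPP3s and 0.284 and 64.0 CPM in GMPs, where the young libraries were near the floor. The duplicates of young GMPs lay further apart than those of MPP3s, with a root mean square log2 difference of 0.711 against 0.502 in both young and aged MPP3s.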

How the data were processed

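RNA of sorted marrow fractions from young and aged mice was sequenced, and 32 libraries in 16 groups of 2 entered the fit. Per the study's methods the authors aligned reads to mm10 with TopHat2 2.0.13 and Bowtie2 2.1.0 and deposited raw counts per gene from StringTie, with no strand setting given in the sources used here, so overlapping, antisense and near-identical genes are uncertain. The raw count of each gene was used as deposited, and the deposited normalized table was not used. The count table names 27 genes by dates that spreadsheet software made from their symbols, which hold 0.188% of counts. Coordinates are GRCm38 (GENCODE M21). Of the symbols, 23309 matched directly and 665 through an older symbol.

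Genes were filtered with filterByExpr by group, scaled by TMM and tested two-sided in edgeR 4.0.16 under R 4.3.3 by its quasi-likelihood method, in all 32 libraries with 1 mean per group, which share 1 estimate of the spread. The Benjamini-Hochberg adjustment ran over 14154 genes, and a gene was called at an adjusted p under 0.01. Differences between fractions were tested as interaction contrasts. Log2 fold changes are aged minus young, given ± SE, and CPM were scaled to library totals. The fit was tested on simulated data. Alternatives were DESeq2 1.42.0, other scalings, no filter, fewer libraries, thinned counts, a replicate term and other thresholds. Named genes were the sort antigens, the 15 largest rises and falls with groups that did not overlap and a mean of at least 5 CPM, up to 6 called members of lowest p per list and its defining members, genes discussed by the study, the 6 of lowest p per direction in each contrast between fractions, and the 10 of lowest p per direction. Tfrc, Dntt, Psmb8, Psmb9, Tap1, Mcm3 and the genes whose promoters are shown were named after their values were seen. Members and lists were chosen with earlier results of these data known. Values of some single genes are not reported here.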

Additional observations from a re-analysis of the deposited data

Results flagged for a closer look

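Results are listed here because the age difference in MPP3s differed from that in another fraction by a test of the difference itself, an interaction contrast of edgeR's quasi-likelihood test at a Benjamini-Hochberg adjusted p under 0.01. Values are the log2 fold change in MPP3s minus that in the other fraction, so a greater difference is positive and a smaller one negative. Against MPP4s 3 genes had a greater and 22 a smaller difference. The greater ones were Cpa3 (1.83 on the log2 scale), Sdc1 (1.07), a surface proteoglycan of plasma cells, and Tmem158 (1.06). Sdc1 fell in both fractions, from a mean of 41.9 to 26.7 CPM in MPP3s and from 166 to 49.1 CPM in MPP4s. The smaller ones of lowest p were Irf8 (-1.70), Hp (-3.88), Xdh (-3.46), which encodes xanthine dehydrogenase, Clec12a (-1.34), Slpi (-2.06), a protease inhibitor, and Ap3s1 (-1.03), an adaptor subunit of vesicle transport. Ap3s1 stayed at a mean of 69.9 and 69.2 CPM in young and aged MPP3s and went from 29.5 to 58.2 CPM in MPP4s. The means in young and aged MPP4s were 1.22 and 2.62 CPM for Xdh and 1.86 and 5.41 CPM for Slpi. Both rises there were thus at a low level.

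Against MPP2s 2 genes had a greater difference, Cpa3 (1.08) and Mcpt8 (2.80), and 2 a smaller one, Prg2 (-8.02) and Epx (-8.67).

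Against GMPs 1463 genes had a greater and 1319 a smaller difference. Among the greater ones of lowest p were Srsf2 (1.34), Etf1 (1.32), a translation release factor, Slbp (1.04), Odc1 (1.12) and Tcp1 (1.10). Adamts13, the protease that trims von Willebrand factor, had a fitted difference of 9.59, but both aged GMP libraries were at 0 counts, so this value depends on the fit's prior count and is no bound. Among the smaller ones of lowest p were Egr1 (-8.19), Ccl3 (-6.57), Fos (-5.43), Jun (-4.05), Dusp2 (-1.77) and Git2 (-1.20), which encodes a regulator of ARF GTPases. For Fos the means were 4598 and 4315 CPM in young and aged MPP3s and 13.997 and 609 CPM in young and aged GMPs. For Ccl3 the means in GMPs were 0.343 and 8.53 CPM. The young GMPs were near the floor for Ccl3, as for Egr1, so the size of these differences is uncertain.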

How the results depend on the processing

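Of 251 named genes none that passed the test changed direction under any alternative run on it, while some that did not pass, such as Ly6a and Irf1, did, and 0 to 42 per alternative lost their call. The 1972 genes called in aged MPP3s became 1294 when the 4 MPP3 libraries were fitted by themselves, 3412 at an adjusted p under 0.05, 415 with a log2 fold change of at least 1, and 1093 to 1373 without single libraries. The share of called genes that were higher, 58.4%, was 44.8% with DESeq2, 17.3% at a log2 fold change of at least 1, 48.8% with DESeq2 size factors and 62.6 to 71.1% without single libraries. Against MPP4s the 25 genes became 76 with DESeq2, 45 at an adjusted p under 0.05 and 12 to 23 without single libraries. Against MPP2s the 4 genes became 30 with DESeq2, 23 in a fit of 8 libraries, 10 at an adjusted p under 0.05 and 1 to 3 without single libraries. Against GMPs the 2782 genes became 4355 at an adjusted p under 0.05, 970 at a log2 fold change of at least 1 and 2126 to 2321 without single libraries. Leaving out a library leaves 1 at that age, which is assumed to vary like the other groups, and for the other changes the cause was not tested. Thinning all libraries to 11237384 counts gave 981 higher and 940 lower genes. Replicate numbers are shared between ages, but the deviations of same-numbered MPP3 libraries correlated by 0.0547, so the numbers were not taken to pair them. With the replicate block 1975 genes were called, which held 97.3% of the 1972. The counts against MPP4s, MPP2s and GMPs were then 22, 4 and 2808. With 2 libraries per age, a gene that did not pass the test is not shown to be equal at both ages.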
